A study of Mus musculus with 60 samples.

Results

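Signals of p53 target genes were examined in undifferentiated mouse embryonal carcinoma cells. The set held 10 genes: Trp53, which encodes p53, and its targets Cdkn1a, Plk2, Bbc3, Ccng1, Mdm2, Trp53inp1, Btg2, Phlda3 and Bax. Its members were taken as the probe sets whose platform annotation gives exactly 1 of these symbols. This found 16 probe sets for 8 genes, among 13181 genes tested. For Trp53 and Bax no probe set was found under their symbols, and both are not analysed here.

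RNA was measured in 6 strains on paired arrays, MOE430A and MOE430B, with 5 replicates per strain and 60 arrays in all. The strains were P19, an embryonal carcinoma line labelled as C3H, male and of embryonic tissue, its substrain P19CL6, and 4 lines labelled as substrains of P19CL6 (CL6G26, CL6G36, CL6G45, CL6G52). All 6 shared growth in alpha-MEM with fetal calf serum, with no treatment given in the labels, which do not say how the sublines were derived or whether each is 1 clone. The replicates are labelled biological, but separate cultures are not described, so every p-value here rests on variation among these samples, some of which may be technical. In RNA from whole cultures, fewer cells of a type and less RNA per cell cannot be told apart.

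p53 is a transcription factor that MDM2 keeps low by marking it for degradation. Stress on DNA or ribosomes frees p53, which binds paired short elements near its targets and raises genes of cell cycle arrest, repair and apoptosis. In embryonal carcinoma and embryonic stem cells p53 is also linked to the choice between self-renewal and differentiation.

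The promoters of Cdkn1a and Ccng1 are shown because both genes were among those that separated the strains and their windows held paired p53 elements. Sequences are from RefSeq on GRCm38.p6 and run 5′ to 3′ over the 250 bases before the start of transcription, with capitals marking the matched elements. The Cdkn1a window is chr17:29090729-29090978 on the plus strand, and the Ccng1 window is chr11:40755287-40755536 on the minus strand.

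Cdkn1a: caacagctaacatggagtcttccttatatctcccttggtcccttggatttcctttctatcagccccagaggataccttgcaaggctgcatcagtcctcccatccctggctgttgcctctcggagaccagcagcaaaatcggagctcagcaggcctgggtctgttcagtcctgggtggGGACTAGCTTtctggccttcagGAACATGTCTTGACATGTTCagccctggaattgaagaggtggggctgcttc

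Ccng1: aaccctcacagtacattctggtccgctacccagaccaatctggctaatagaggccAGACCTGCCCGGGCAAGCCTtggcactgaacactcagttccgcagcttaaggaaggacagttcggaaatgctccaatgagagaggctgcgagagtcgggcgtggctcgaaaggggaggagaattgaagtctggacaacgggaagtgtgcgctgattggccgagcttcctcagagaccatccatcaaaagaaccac

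In the Cdkn1a window, the 10-base p53 consensus element matched without mismatch from base 73 and from base 51 before the start, with a spacer of 12 bases between the matches. The nearer of these was followed directly by another element with 1 mismatch, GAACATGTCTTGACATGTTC. In Ccng1 both elements adjoined, from base 195 before the start, with 1 mismatch in all, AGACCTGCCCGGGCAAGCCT. Cdkn1a has another annotated start 2790 bases downstream, whose window held no match. Of the 10 windows of 7 measured members, 3 held an exact element, the third being that of Mdm2 at base 186, against 7.13% of all 32851 promoter windows. Only 0.505% of all windows held a full site, meaning a pair of elements up to 13 bases apart, with at most 1 mismatch. No exact element was found in the windows of Plk2, Phlda3, Btg2 and Bbc3, and Trp53inp1 was not searched. The consensus was searched as the p53 consensus element, which reads the same on both strands, and overlapping matches were allowed. A match describes letters in these windows and not binding.

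Of the 7 embryonal carcinoma markers, 6 (Pou5f1, Nanog, Sox2, Utf1, Lin28a and Tdgf1) lay above the floor on all 30 arrays, the floor being the 40th percentile of an array. The other, Dppa5a, did so on 11. Of 7 fibroblast genes, 2 (Col1a2 and Thy1) lay above it on all arrays and 3 on none. Of 4 neural genes, 1 (Tubb3) lay above it on all arrays and 1 on none. Lying above this floor thus does not by itself tell cell types apart. Of the cardiac muscle genes, Myh6, Tnnt2 and Myl7 lay above it on no array, Actc1 on 22 and Nkx2-5 on 29 of 30. Median signals before normalization ran from 30.2 to 53.4 on MOE430A, and precision is set by 5 arrays a strain. Over all genes of the array, P19 replicates 4 and 5 lay nearer to the P19CL6 arrays than to the other P19 arrays. CL6G52 replicate 1 lay nearer to CL6G45 than to its own strain. On MOE430A these were the only 3 of 30 arrays nearer to another strain. On MOE430B it held for them too, but 12 of 30 arrays lay nearer to another strain there. Counts of members are given with and without the 3 arrays. Counts of the other gene lists are given with all arrays only, except the other p53 targets for P19CL6 against P19. The members, which are among the genes of these profiles, were divided in the same way. How many of all genes did so on these single arrays was not counted. Each of P19 replicates 1, 2 and 3 read below the whole P19CL6 range for 6 of 8 members, and replicates 4 and 5 did so for 0. CL6G52 replicate 1 lay inside the CL6G45 range for 7 of 8 members and below it for Trp53inp1.

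**Figure D1:**
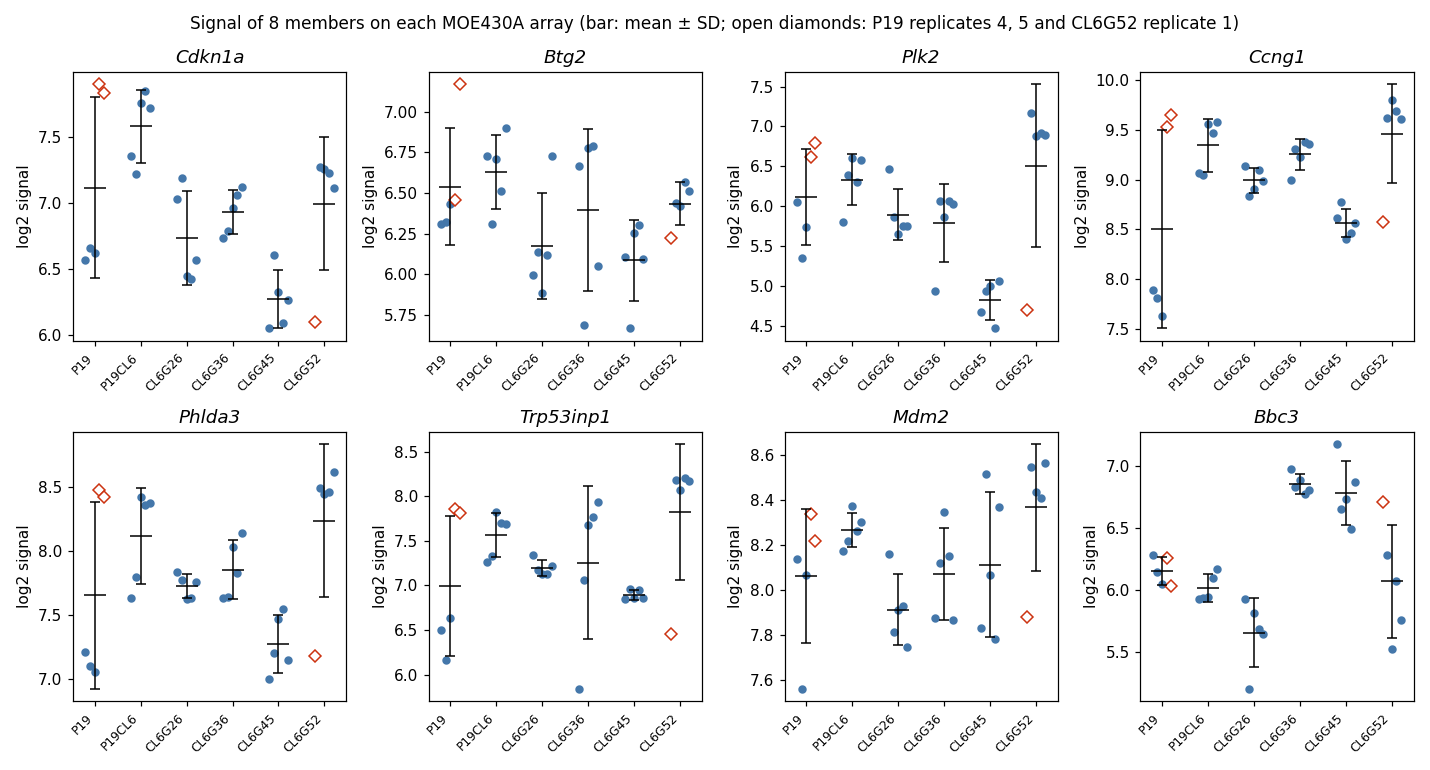
Log2 signal (vertical axis) of 8 p53 target genes on each MOE430A array, by strain (horizontal axis). Points are arrays, bars are mean ± SD over 5 arrays, and open diamonds are P19 replicates 4 and 5 and CL6G52 replicate 1, which lie apart from their strains for Ccng1, Phlda3 and Trp53inp1. In CL6G45 the Plk2 arrays sit between 4.47 and 5.07, below every P19CL6 array.

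Among the targets that halt the cell cycle, Cdkn1a and Plk2 had the largest differences of the 8 members between CL6G45 and P19CL6. Cdkn1a encodes p21, the inhibitor of cyclin-dependent kinases through which p53 imposes arrest. It read 7.36, 7.22, 7.76, 7.85 and 7.72 on the log2 scale in P19CL6 replicates 1 to 5, and 6.05, 6.61, 6.33, 6.09 and 6.26 in CL6G45. All 5 CL6G45 arrays lay below all P19CL6 arrays. The difference was -1.32 ± 0.24 (SE), a 2.49-fold lower signal (limma, adjusted p = 0.000197). The second Cdkn1a probe set lay above the floor on only 10 of 30 arrays, with means from 3.42 in CL6G45 to 4.82 in P19CL6.

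The other sublines lay between these levels for Cdkn1a. CL6G26 read 7.03, 7.19, 6.45, 6.43 and 6.57, and CL6G36 read 6.74, 6.78, 6.96, 7.06 and 7.12. Both sublines lay wholly below the P19CL6 range, but neither difference passed the threshold, at -0.85 (limma, adjusted p = 0.0591) and -0.65 (adjusted p = 0.0527). They passed in 7 and 9 of 24 alternatives. Among these were the fits without P19 replicates 4 and 5 (limma, adjusted p = 0.00534 and 0.00952) and without CL6G52 replicate 1 (0.0207 and 0.0254), arrays that add to the pooled spread, and the fit without P19CL6 replicate 2. CL6G52 read 6.10 in replicate 1 and 7.27, 7.26, 7.23 and 7.12 in the others, which overlap P19CL6 only at its lowest array. P19 read 6.56, 6.66 and 6.62 in replicates 1 to 3 and 7.91 and 7.83 in replicates 4 and 5. The first group of P19 arrays lay below every P19CL6 array and the last pair reached its top.

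Plk2 encodes a polo-like kinase that is induced by p53 and acts in centriole duplication and stress signalling. P19CL6 read 5.80, 6.39, 6.60, 6.30 and 6.58, and CL6G45 read 4.68, 4.94, 5.0, 4.47 and 5.07. The CL6G45 arrays all lay lower, close to the floor of 4.61 to 4.62, and 1 of them lay under it. Plk2 fell by 1.5 ± 0.32 (SE) on the log2 scale in CL6G45 (limma, adjusted p = 0.00131), and by 1.48 with signals raised to the floor.

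Plk2 had the widest spread of strain means of the 8 members, 1.68 log2 units. CL6G52 read 4.70 in replicate 1 and 7.16, 6.89, 6.92 and 6.89 in replicates 2 to 5. The last 4 were above all arrays of the other 5 strains, while replicate 1 was among the CL6G45 arrays. CL6G26 read 6.46, 5.86, 5.66, 5.76 and 5.75, with replicate 1 highest, and CL6G36 read 4.94, 6.06, 5.86, 6.07 and 6.02, with replicate 1 lowest. P19 read 6.06, 5.36, 5.74, 6.62 and 6.80. The higher P19 values were again replicates 4 and 5, and these ranges overlapped P19CL6. CL6G45 also read below CL6G26, by -1.07 ± 0.32 (SE; limma, adjusted p = 0.0211). The second Plk2 probe set, on MOE430B, lay above the floor on only 14 of 30 arrays and had another order. Its means ran from 3.48 in CL6G52 to 4.31 in CL6G26, with 3.71 in CL6G45 and 4.02 in P19CL6.

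Btg2 encodes an antiproliferative regulator of messenger RNA decay and its strains overlapped widely. P19CL6 read 6.73, 6.31, 6.71, 6.51 and 6.90, and CL6G45 read 6.11, 5.67, 6.25, 6.30 and 6.10. The highest CL6G45 array fell just short of the lowest P19CL6 array. Btg2 was lower in CL6G45 by -0.55 ± 0.19 (SE; limma, adjusted p = 0.0447), a call lost in 12 of 24 alternatives, among them leaving out 1 of CL6G45 replicates 1, 2, 3 or 5 or of P19CL6 replicates 1, 3, 4 or 5. Its second probe set differed by -0.24 and did not pass (adjusted p = 0.281). Over the 6 strains the mean ran from 6.09 ± 0.25 in CL6G45 to 6.63 ± 0.23 in P19CL6 (SD, n = 5), and P19 replicate 5, at 7.17, was the highest single array.

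Mdm2 and Ccng1 act back on p53 itself. Ccng1 encodes cyclin G1, which recruits a phosphatase to MDM2. It read 9.07, 9.05, 9.56, 9.47 and 9.58 in P19CL6 and 8.62, 8.77, 8.40, 8.46 and 8.56 in CL6G45, with no overlap. The difference was -0.78 ± 0.27 (SE; limma, adjusted p = 0.0446), and this call too was lost in 12 of 24 alternatives, among them leaving out any 1 of the CL6G45 arrays or 1 of P19CL6 replicates 3, 4 or 5. The other Ccng1 probe sets differed by -0.94 (limma, adjusted p = 0.0346) and -0.78 (adjusted p = 0.0547).

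Ccng1 showed the plainest split within P19. Replicates 1, 2 and 3 read 7.89, 7.81 and 7.63, and replicates 4 and 5 read 9.53 and 9.65. The 3 lower values were under every other array of the series, and the higher pair was inside or above the P19CL6 range. CL6G26 read 9.14, 8.84, 8.90, 9.09 and 8.98, and CL6G36 read 9.0, 9.31, 9.23, 9.38 and 9.36. Both overlapped P19CL6. CL6G52 read 8.58 in replicate 1, as low as CL6G45, and 9.62, 9.81, 9.69 and 9.61 in the others, all above P19CL6.

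Mdm2, the ubiquitin ligase of p53 and itself a target, moved little on the probe set read here. Its strain means ran only from 7.91 ± 0.16 in CL6G26 to 8.37 ± 0.28 in CL6G52 (SD, n = 5). P19CL6 read 8.17, 8.22, 8.37, 8.26 and 8.30, and CL6G26 read 8.16, 7.81, 7.91, 7.93 and 7.75. The CL6G26 arrays lay just below, but the difference of -0.35 ± 0.14 (SE) did not pass (limma, adjusted p = 0.262). CL6G45 ran from 7.78 to 8.51, across the whole P19CL6 range, and differed by -0.15 (limma, adjusted p = 0.515). A second Mdm2 probe set, above the floor on all 30 arrays, had a wider range of means, from 6.94 in P19 to 7.72 in CL6G52. On it P19CL6 had a mean of 7.37 and CL6G45 of 7.04. Its P19 replicates 1 to 3 read 6.81, 6.80 and 6.66, below the lowest P19CL6 array at 7.17. The third probe set lay above the floor on 5 of 30 arrays.

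The remaining members act in survival and cell death, and they did not move together. Phlda3 encodes a pleckstrin-homology protein that competes with AKT at membranes. P19CL6 read 7.63, 7.80, 8.42, 8.36 and 8.38, and CL6G45 read 7.0, 7.20, 7.47, 7.55 and 7.15. Every CL6G45 array was lower, and Phlda3 fell by 0.84 ± 0.25 (SE) on the log2 scale (limma, adjusted p = 0.0178). This call was lost under 3 of 24 alternatives, namely the deposited scaling and the fits without P19CL6 replicate 3 or 5.

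Phlda3 divided the P19 and CL6G52 arrays as Ccng1 did. P19 read 7.21, 7.10, 7.05, 8.48 and 8.43, so that replicates 4 and 5 were the high ones. CL6G26 ran from 7.63 to 7.84 and CL6G36 from 7.63 to 8.14, both overlapping the lower P19CL6 arrays. CL6G52 read 7.18 in replicate 1 and 8.50, 8.45, 8.46 and 8.62 in the others. The latter lay above every P19CL6 array.

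Trp53inp1 encodes a stress protein that promotes autophagy and p53-dependent death. P19CL6 read 7.27, 7.33, 7.82, 7.70 and 7.69, and CL6G45 read 6.84, 6.95, 6.86, 6.95 and 6.85. The arrays did not overlap, yet the difference of -0.67 ± 0.33 (SE) did not pass (limma, adjusted p = 0.171), with spreads of 0.86 in CL6G36, 0.79 in P19 and 0.76 in CL6G52 (SD, n = 5) entering the fit. CL6G36 read 5.84 in replicate 1 and 7.06, 7.67, 7.77 and 7.93 in the others, so 1 array accounts for most of that range. CL6G52 read 6.46 in replicate 1 and 8.18, 8.07, 8.21 and 8.18 in the rest, above all P19CL6 arrays. P19 read 6.50, 6.17 and 6.63 in replicates 1 to 3, below P19CL6, and 7.86 and 7.81 in the others. The CL6G45 difference passed in 2 of 24 alternatives. These were the fit of only the strains compared and that without P19 replicates 4 and 5 and CL6G52 replicate 1. The second Trp53inp1 probe set lay above the floor on 23 of 30 arrays. Its means were 5.36 in P19CL6, 4.69 in CL6G45 and 4.27 in P19.

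Bbc3 was higher in the same CL6G45 arrays in which other members were lower. It encodes PUMA, the BH3-only protein that opens the mitochondrial death pathway. P19CL6 read 5.93, 5.94, 5.94, 6.10 and 6.17, CL6G36 read 6.98, 6.83, 6.89, 6.77 and 6.81, and CL6G45 read 7.18, 6.65, 6.73, 6.49 and 6.88. All arrays of both sublines lay above all arrays of P19CL6. Bbc3 was higher by 0.84 ± 0.16 (SE) in CL6G36 (limma, adjusted p = 0.00022) and by 0.77 ± 0.16 in CL6G45 (adjusted p = 0.000685).

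The other strains kept a lower Bbc3 signal. P19 read 6.28, 6.15, 6.05, 6.26 and 6.04, with no split between replicates 1 to 3 and replicates 4 and 5. CL6G26 read 5.93, 5.20, 5.82, 5.68 and 5.65, the lowest strain mean at 5.66 ± 0.28 (SD, n = 5). CL6G52 read 6.71 in replicate 1, inside the CL6G45 range, and 6.28, 5.53, 6.08 and 5.76 in the others. Against CL6G26, Bbc3 was higher by 1.2 in CL6G36 (limma, adjusted p = 1.54e-06) and by 1.13 in CL6G45 (adjusted p = 6.61e-06).

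**Figure D2:**
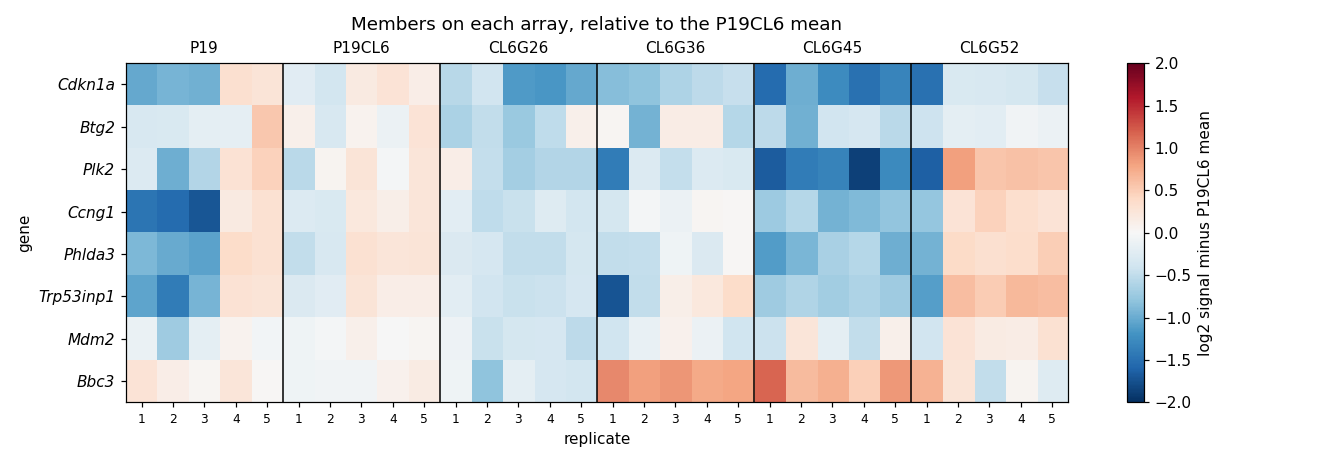
Log2 signal of each member (rows) on each MOE430A array (columns, replicates 1 to 5 of 6 strains) minus the P19CL6 mean of that gene. Blue is lower and red higher. Bbc3 is red across CL6G36 and CL6G45, and the column of CL6G52 replicate 1 has the colours of CL6G45.

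Counted over the members, CL6G45 stood furthest from P19CL6. In it 6 of 8 members passed the threshold of an adjusted p under 0.05, against 13.3% of all genes tested, and the median difference was -0.73. Lower were Cdkn1a, Plk2, Phlda3, Ccng1 and Btg2, 5 of 8 against 6.71% of all genes, and higher was Bbc3, 1 of 8 against 6.55%. For 6 of 8 members the CL6G45 arrays lay wholly below P19CL6, as they did for 6.75% of all genes. Plk2 and Cdkn1a changed at least 2-fold. The count was 3 with the deposited scaling and without P19CL6 replicate 3 or 5, and ran from 3 to 6 when 1 array was left out. P19CL6 replicates 1 and 2 read lower than its other arrays for Cdkn1a, Ccng1, Phlda3 and Trp53inp1, and without them 5 of 8 members passed, against 11.8% of all genes, with Btg2 lost. The summed signal of the 6 primitive endoderm markers ran from 200 to 271 in P19CL6 and from 118 to 159 in CL6G45. Of these markers, 0 of 6 lay above the floor on all arrays and 1 on no array. Foxa2 and Gata6 lay above it on 29 arrays each, Gata4 on 19, Sox17 on 4 and Afp on 1. Strain means on the log2 scale ran from 4.91 to 7.02 for Foxa2 and from 4.83 to 5.52 for Gata6. The sum adds linear signals, so Foxa2 weighs most in it where its signal is high. A difference in sums therefore need not hold for the list as a whole. The part of this list in the member differences was not tested.

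CL6G36, with a primitive endoderm sum of 116 to 137 (114 to 145 in CL6G52), shared the higher Bbc3 but not the other calls. There 1 of 8 members passed, against 13.5% of all genes, and the median difference was -0.25. The direct comparison of CL6G45 with CL6G36 called 0 of 8 members, against 3% of all genes (limma; 0 higher and 4 lower at an unadjusted p under 0.05), a result that changed with the arrays in the fit. Without P19 replicates 4 and 5, 2 of 8 were lower in CL6G45, against 2.29% of all genes, namely Ccng1 (-0.69, limma adjusted p = 0.0048) and Cdkn1a (-0.66, adjusted p = 0.0246). Without CL6G52 replicate 1 it was Plk2 alone (-0.96, limma adjusted p = 0.00971), 1 of 8 against 2.18%. Without all 3 arrays 4 of 8 were lower, against 3.15%, with Phlda3 added (-0.58, limma adjusted p = 0.00448). In CL6G26 0 of 8 passed, against 1.24% of all genes, with 4 lower at an unadjusted p under 0.05 in limma. All 8 CL6G26 differences were negative, with a median of -0.38, and for 2 of 8, Cdkn1a and Mdm2, the arrays lay wholly below P19CL6, as for 2.48% of all genes. The 5 comparisons share the P19CL6 arrays, so their differences are not independent of each other.

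**Figure D3:**
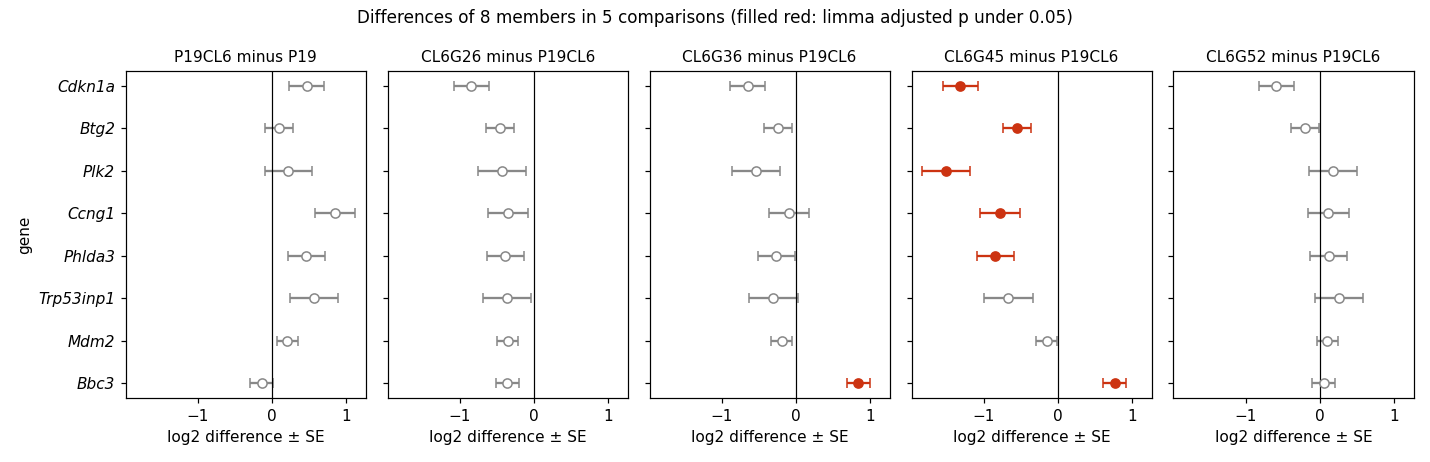
Difference of mean log2 signal ± SE (horizontal axis) for 8 members (vertical axis) in 5 comparisons over all 30 MOE430A arrays. Filled red points passed an adjusted p under 0.05 in limma, which holds for 6 members in CL6G45, 1 in CL6G36 and 0 in the other panels.

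For P19CL6 against P19, the outcome turned on P19 replicates 4 and 5. With all arrays 0 of 8 members passed, against 4.46% of all genes, with 1 higher at an unadjusted p under 0.05 in limma (Ccng1, 0.85 ± 0.27 SE, adjusted p = 0.0598). Leaving out replicate 4 or 5 alone was enough for Ccng1 to pass. Without those 2 arrays 4 of 8 were higher, against 10.5% of all genes. These were Ccng1 (1.57, limma adjusted p = 6.41e-08), Trp53inp1 (1.13, adjusted p = 0.0115), Phlda3 (1.0, adjusted p = 0.00108) and Cdkn1a (0.97, adjusted p = 0.000854). The arrays left out were set apart on profiles that include these genes, so the values describe the 3 P19 arrays kept. For 5 of 8 members these 3 arrays lay wholly below P19CL6, as for 12.3% of all genes. Bbc3 differed by -0.14 with all arrays and by -0.15 without them, and did not pass either time.

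For CL6G52 against P19CL6, no member passed with or without CL6G52 replicate 1, while the ranges of 5 members overlapped only with it in place. With all arrays 0 of 8 members passed, against 3.18% of all genes, with 1 lower at an unadjusted p under 0.05 in limma. Without replicate 1 again 0 passed, against 4.89%, with 1 higher at an unadjusted p under 0.05. The 4 remaining arrays nevertheless lay above all P19CL6 arrays for 5 of 8 members, namely Plk2, Trp53inp1, Phlda3, Ccng1 and Mdm2, as for 4.56% of all genes. The differences were 0.63 for Plk2, 0.60 for Trp53inp1, 0.39 for Phlda3, 0.34 for Ccng1 and 0.22 for Mdm2. Cdkn1a was not among them, at -0.36. Replicate 1 was set apart on profiles that include these genes, so these values describe the 4 arrays kept. Without P19 replicates 4 and 5, which enter the fit through its spread, Cdkn1a was lower in CL6G52 with replicate 1 kept (-0.59, limma adjusted p = 0.0469), 1 of 8 against 2.55% of all genes. With CL6G52 replicate 1 left out, other probe sets passed, 1 of Ccng1 (1.04, limma adjusted p = 0.0072) and 1 of Mdm2 (0.43, adjusted p = 0.049).

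The sublines differed among themselves for Bbc3 (moderated F test in limma, adjusted p = 6.87e-07), Plk2 (0.00166) and Phlda3 (0.0243), which is 3 of 8 members against 23.2% of all genes. The Phlda3 call was lost without any 1 of CL6G52 replicates 2 to 5 or CL6G45 replicates 1 and 5. Without CL6G52 replicate 1 it was 7 of 8 against 27.2%, all but Btg2 (limma, adjusted p = 0.288). For Plk2, CL6G52 and CL6G45 lay at the ends. Without replicate 1, Plk2 was 4.39-fold higher in CL6G52 than in CL6G45, a difference of 2.13 ± 0.24 (SE; limma, adjusted p = 1.48e-07), and 1.68 ± 0.32 with it (adjusted p = 0.000711). Bbc3 was lower by -0.88 ± 0.14 (SE; limma, adjusted p = 3.30e-05) without it and by -0.72 ± 0.16 with it (adjusted p = 0.00206). In that pair 7 of 8 members passed without replicate 1, against 16.2% of all genes, and 5 of 8 with it, against 11.1%. Replicate 1 was set apart for lying nearer to CL6G45, on profiles that include these genes. Leaving it out thus favours a wider difference from CL6G45, and the values without it describe the CL6G52 arrays kept.

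With all arrays, few neighbouring strains in the order of levels differed at an adjusted p under 0.05 in limma. Bbc3 ran from CL6G36 through CL6G45, P19, CL6G52 and P19CL6 down to CL6G26, and only the step from CL6G45 to P19 passed (0.63 ± 0.16 SE, limma adjusted p = 0.00217). Plk2 ran from CL6G52 at 6.51 through P19CL6, P19, CL6G26 and CL6G36 to CL6G45 at 4.83. For the other 7 members no pair of neighbours passed with all arrays. The fit pools the spread of all 6 strains, so neighbours that did not pass can still be apart. For Ccng1 the CL6G26 arrays (8.84 to 9.14) lay wholly above the CL6G45 arrays (8.40 to 8.77). CL6G45 had the lowest mean for Cdkn1a, Plk2, Phlda3, Trp53inp1 and Btg2, and P19 had the lowest for Ccng1. Without P19 replicates 4 and 5, P19 was lowest also for Phlda3 (7.12 against 7.27 in CL6G45) and Trp53inp1 (6.43 against 6.89). More steps then passed, from CL6G45 to P19 for Ccng1 (limma, adjusted p = 0.00062), from CL6G26 to CL6G45 for Ccng1 (0.0454), from P19CL6 to CL6G52 for Cdkn1a (0.0469) and from P19 to CL6G45 for Plk2 (0.047). Without CL6G52 replicate 1, the step from CL6G36 to CL6G45 did so for Plk2 (limma, adjusted p = 0.00971).

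Of 40 other p53 targets listed, 32 were tested. In CL6G45, 6 of these 32 were lower and 1 higher than in P19CL6, against 6.71% and 6.55% of all genes, with a median of -0.07. The 4 with the smallest adjusted p were Pidd1, a death-domain scaffold that activates caspase-2 (-0.79, limma adjusted p = 0.00162), Perp, a membrane protein of desmosomes and apoptosis (-0.98, 0.00165), Ercc5, a nuclease of nucleotide excision repair (-0.48, 0.00601), and Rchy1, a ubiquitin ligase for p53 (0.34, 0.0142). Perp read 6.20, 6.0, 6.54, 6.42 and 6.47 in P19CL6 and 5.57, 5.64, 5.18, 4.94 and 5.39 in CL6G45, with no overlap. In P19 it divided as the members did, at 5.29, 5.39 and 4.88 in replicates 1 to 3 and 6.57 and 6.39 in the others.

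In CL6G36, 3 of 32 other targets were higher and 1 lower, against 6.83% and 6.72% of all genes. Sesn2, a stress-induced inhibitor of growth signalling through mTORC1, was higher by 0.59 (limma, adjusted p = 0.00139), Pml, the organiser of nuclear bodies, by 0.37 (0.00139), and Rchy1 by 0.38 (0.00605), while Perp was lower by -0.75 (0.0147). Sesn2 read 7.95, 8.37, 7.82, 7.85 and 7.40 in P19CL6 and 8.51, 8.48, 8.35, 8.39 and 8.62 in CL6G36. The groups overlapped at P19CL6 replicate 2 alone. In CL6G26 and CL6G52, 0 of 32 passed in limma, against 1.24% and 3.18% of all genes, with 1 higher and 5 lower in CL6G26 and 3 higher and 1 lower in CL6G52 at an unadjusted p under 0.05.

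For P19CL6 against P19, 4 of 32 other targets were higher and 0 lower with all arrays, against 2.57% and 1.89% of all genes. Dcxr, a carbonyl reductase, was higher by 1.62 (limma, adjusted p = 0.0171), Ercc5 by 0.48 (0.0209), Sesn2 by 0.47 (0.0319) and Psrc1, a spindle protein, by 0.56 (0.0408). Without P19 replicates 4 and 5, 11 were higher and 6 lower, against 10.5% and 9.1% of all genes. Dcxr read 4.40, 4.02 and 5.09 in P19 replicates 1 to 3, the first 2 under the floor, against 7.31 and 7.55 in replicates 4 and 5 and 6.88 to 7.61 in P19CL6. Its P19 levels divided in the same way as those of Ccng1.

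Among 19 tested regulators and relatives of p53, Sirt1, a deacetylase of p53, was called in 4 of 5 comparisons. In all, 2 of 19 passed in CL6G45 and 3 of 19 in CL6G36, against 13.3% and 13.5% of all genes, 1 in CL6G52, against 3.18%, and 1 in P19CL6 against P19, where 4.46% did. It was higher than in P19CL6 in CL6G36 (0.68, limma adjusted p = 0.00035), CL6G52 (0.55, 0.0108) and CL6G45 (0.50, 0.00678), and lower in P19CL6 than in P19 (-0.46, 0.0341). P19CL6 read 7.32, 7.40, 7.42, 7.42 and 7.09, and CL6G52 read 7.66, 7.74, 8.03, 7.97 and 7.99. All CL6G52 arrays lay above P19CL6, replicate 1 included. In P19, Sirt1 read 8.09, 7.83 and 8.20 in replicates 1 to 3. Replicates 4 and 5 read 7.37 and 7.45, near P19CL6, so the call against P19 rests on replicates 1 to 3. Atr, the kinase of the replication checkpoint, was higher in CL6G45 (0.56, limma adjusted p = 0.00994) and CL6G36 (0.43, 0.0454), and Crebbp, an acetyltransferase, was lower in CL6G36 (-0.35, 0.0132). In CL6G26 0 of 19 passed in limma, against 1.24% of all genes, with 1 lower at an unadjusted p under 0.05.

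Of the 3 CDK inhibitors tested beside Cdkn1a, Cdkn1b, which encodes p27, was higher in CL6G45 (0.59, limma adjusted p = 0.00685), where Cdkn1a was lower. Cdkn1b read 6.80, 6.96, 6.81, 6.60 and 6.81 there and 6.38, 6.52, 5.93, 6.02 and 6.20 in P19CL6, without overlap. Cdkn2d was higher in CL6G26 (0.37, limma adjusted p = 0.0438) and CL6G36 (0.35, 0.0133). Thus 1 of 3 passed in each of CL6G45, CL6G36 and CL6G26, against 13.3%, 13.5% and 1.24% of all genes. In CL6G52 and in P19CL6 against P19, 0 of 3 passed in limma, against 3.18% and 4.46%, with 0 at an unadjusted p under 0.05. Of 15 tested cell cycle genes known to fall when p21 is active, 3 were lower and 1 higher in CL6G45, against 6.71% and 6.55% of all genes. These were Ccna2 (-0.34, limma adjusted p = 0.00107), Cdk1 (-0.31, 0.00127) and Mybl2 (-0.40, 0.0263), with Bub1 higher (0.36, 0.0048). In CL6G36 2 were lower, against 6.72% of all genes, Cdk1 (-0.24, limma adjusted p = 0.00947) and Cks2 (-0.32, 0.0049). In P19CL6 against P19, 3 were lower, against 1.89% of all genes, Foxm1 (-0.49, limma adjusted p = 0.0341), Cdc20 (-0.26, 0.043) and Mybl2 (-0.42, 0.0454). None of the 15 passed in CL6G26 or CL6G52 in limma, against 1.24% and 3.18% of all genes, with 0 and 1 at an unadjusted p under 0.05.

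Of 13 tested BCL2-family and caspase-pathway genes, 2 were higher and 2 lower in CL6G36, the subline with the highest Bbc3 mean, against 6.83% and 6.72% of all genes. In CL6G45 2 were higher and 1 lower, against 6.55% and 6.71% of all genes. Lower in CL6G36 were Cycs, which encodes cytochrome c (-0.61, limma adjusted p = 0.00163), and Bak1, a pore-forming effector (-0.38, 0.00988). Higher there were the BH3-only genes Hrk (0.52, limma adjusted p = 0.0322) and Bid (0.42, 0.0402). In CL6G45 Cycs was lower (-0.52, limma adjusted p = 0.00755), while Bcl2l11, which encodes BIM (0.42, 0.0175), and Mcl1, a survival protein (0.24, 0.0231), were higher. Bcl2l11 was also higher in CL6G52 (0.45, limma adjusted p = 0.0307). In P19CL6 against P19, 1 of 13 was higher and 1 lower, against 2.57% and 1.89% of all genes. Bcl2, the founding survival gene, was higher (0.99, limma adjusted p = 0.0122) and Bid lower (-0.61, 0.0143). Bcl2 ran from 4.53 to 5.89 in P19, with 3 of 5 arrays above the floor, and from 5.73 to 6.34 in P19CL6. In CL6G26 0 of 13 passed in limma, against 1.24% of all genes, with 0 at an unadjusted p under 0.05.

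Of 7 paralogs of the members tested, 1 was higher and 1 lower in CL6G45, against 6.55% and 6.71% of all genes. In CL6G36 1 was lower, against 6.72%. In P19CL6 against P19, 1 was higher and 1 lower, against 2.57% and 1.89%. Phlda2, an imprinted relative of Phlda3, was lower in CL6G36 (-0.88, limma adjusted p = 0.000647), in CL6G45 (-0.61, 0.0166) and in P19CL6 against P19 (-0.83, 0.0122). Btg1, a relative of Btg2, was higher in CL6G45 (0.48, limma adjusted p = 0.00216). Ccng2, a relative of Ccng1, was higher in P19CL6 than in P19 (1.07, limma adjusted p = 0.0122). In CL6G26 and CL6G52 0 of 7 passed in limma, against 1.24% and 3.18% of all genes, with 1 lower at an unadjusted p under 0.05 in each.

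As a description of likeness, the 8905 other genes read on MOE430A were ranked by Pearson r with Plk2, the member with the widest spread of strain means. The 5 most alike over 30 arrays were Ei24, an endoplasmic reticulum protein listed here as a p53 target (r = 0.88), Phlda3 (0.83), Mme (0.83), Tpm1 (0.83) and Znrf2 (0.82). Cdkn1a ranked 7 at 0.81 and Trp53inp1 ranked 10 at 0.80, while Ccng1 stood at 0.68, Mdm2 at 0.60 and Btg2 at 0.39. Bbc3 stood at -0.52. The points share strains and arrays, so no p is given. Without P19 replicates 4 and 5 and CL6G52 replicate 1, over 27 arrays, the members ran from 0.80 for Phlda3 to 0.32 for Btg2, with Bbc3 at -0.50. Without P19 replicates 1 to 3 and CL6G52 replicate 1, over 26 arrays, Ccng1 was the member most like Plk2, at 0.91. Phlda3 then stood at 0.89, Btg2 at 0.39 and Bbc3 at -0.52.

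Ei24 showed the same low array in CL6G52. It read 7.05 in replicate 1 and 8.07, 8.07, 8.17 and 8.09 in the others. CL6G45 ran from 7.24 to 7.44, below the P19CL6 range of 7.46 to 8.02, with a difference of -0.47 ± 0.14 (SE; limma, adjusted p = 0.0201).

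**Figure D4:**
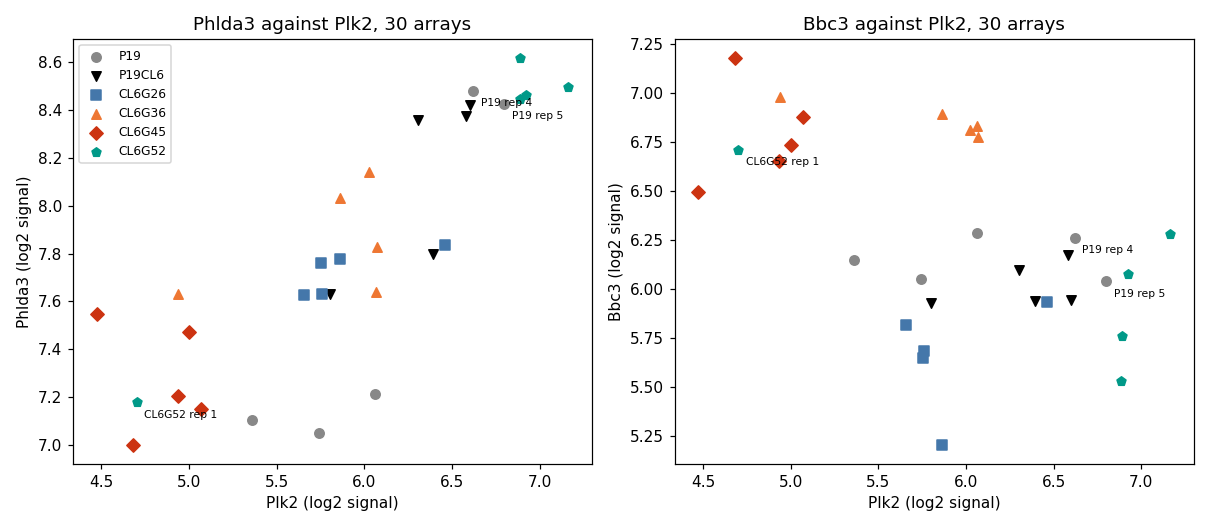
Log2 signal of Phlda3 (left, vertical axis) and Bbc3 (right, vertical axis) against Plk2 (horizontal axes) on 30 MOE430A arrays, coloured by strain, with the arrays that stand apart named. Phlda3 goes up with Plk2 (r = 0.83) except on P19 replicates 1 to 3, and Bbc3 is highest in CL6G36 and CL6G45.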

How the data were processed

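Total RNA of 6 strains, with 5 replicates each, was hybridised to MOE430A and MOE430B arrays. The authors deposited linear signal intensity values per probe set, made with GCOS per the submitters' processing notes, which name no version. From the deposited intensities, log2 values were computed after quantile normalization within an array type and a minimum signal of 1. The floor was an array's 40th percentile (MOE430A) or 60th (MOE430B), and probe sets above it on at least 5 of 30 arrays were tested (15068 and 12131). A gene was read from its probe set with the highest mean signal, MOE430A first, with probe sets of the x_at kind last. All 16 member probe sets passed this filter, and all 8 measured members were read on MOE430A.

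Tests used limma 3.58.1 in R 4.3.3, with a group-means model over 30 arrays (24 residual degrees of freedom), eBayes with a trend, two-sided, and Benjamini-Hochberg adjustment within each array type. A call is an adjusted p under 0.05. On simulated data with 15068 probe sets and the array numbers of CL6G45 and P19CL6, 39 of 100 changes of 0.5 log2 units and 81 of 100 changes of 1 were recovered. No other probe sets were changed, a smaller share than the 13.3% of genes called in CL6G45. The adjustment depends on that share, so these rates describe the simulation only.

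The members and lists were chosen with earlier results of these data known. All 10 members were to be named, and of each list up to 4 genes with the smallest adjusted p among those called in a comparison, plus the 5 genes most like the member with the widest range. Replicate numbers were not used as pairs, since 0 of 5 same-numbered pairs correlated over 0.1 in any comparison. These correlations cannot show whether same-numbered samples were processed together. Alternatives changed the scaling, offset, filter, floor, probe-set choice, arrays fitted and replicates left out.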

Additional observations from a re-analysis of the deposited data

Results flagged for a closer look

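In 9 of 48 groups of 5 arrays (8 members, 6 strains), 1 array lay far from the other 4, with its gap above Dixon's 95% critical value of 0.71. Chance gives about 1 in 20 such groups, and members measured on the same array are not independent. CL6G52 replicate 1 made up 6 of the 9. It was the lowest array of its strain for Cdkn1a (6.10), Plk2 (4.70), Ccng1 (8.58), Mdm2 (7.88), Trp53inp1 (6.46) and Phlda3 (7.18), all log2 signals. For each of these except Trp53inp1 it lay inside the CL6G45 range.

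Within CL6G36, Plk2 was lowest in replicate 1 (4.94), an array that read below the P19CL6 range for 5 of 8 members. The share of all genes that did so was not counted. Within CL6G26, Plk2 was highest in replicate 1 (6.46). Btg2 was highest in P19 replicate 5 (7.17), while P19 replicate 4, which it otherwise resembles, read 6.46.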

How the results depend on the processing

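In 1216 checks of a single member under an alternative, 1128 kept their side of the threshold, 54 newly passed, 34 lost a call and 0 calls reversed. In 6 checks the sign changed, each in a value that did not pass either time (Bbc3, Ccng1 and Phlda3 in CL6G52, Trp53inp1 in CL6G36). Cdkn1a, Plk2 and Bbc3 kept their CL6G45 calls under all 24 alternatives. For P19CL6 against P19, 0 members passed, 1 with the replicate block, 4 without P19 replicates 4 and 5, and 5 also without CL6G52 replicate 1, a fit added after seeing the data. Leaving out these arrays in comparisons that do not use them was added then too. In CL6G26 the count of 0 became 2 with only the strains compared, 1 without P19CL6 replicates 1 and 2, 1 without P19 replicates 4 and 5, and 2 in the fit without all 3 arrays. In CL6G36 the count of 1 became 2 with log2(signal + 16), with the stricter filter of 15 arrays, with only the strains compared, with the replicate block, without P19CL6 replicates 1 and 2 and without P19 replicates 4 and 5, 0 with a 2-fold limit, and 3 without all 3 arrays. In CL6G45 the count of 6 became 3 with the deposited scaling, 2 with a 2-fold limit and 7 without all 3 arrays. In CL6G52 the count of 0 became 1 without P19 replicates 4 and 5 (Cdkn1a, lower) and 1 without all 3 arrays (Ccng1, higher). Among the 4 sublines 3 became 5 with the mean of all probe sets, 5 with only the strains compared, 5 without P19 replicates 4 and 5, and 7 without all 3 arrays. Leaving out each replicate in turn gave 0 to 1, 0 to 1, 1 to 2, 3 to 6, 0 to 0 and 2 to 7 members in these 6 comparisons. The cause was not tested, except that a 2-fold limit or fewer arrays change the call by construction. Replicate numbers were treated as labels only, and the block changed no other count by over 1.5 times. Plk2 in CL6G45 lies near the floor, so its fold is limited by signal over background.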
